A study of Mus musculus with 4 samples.

Results

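The 6 genes Ly6a, Ly6e, Ly6g, Ly6c1, Ly6c2 and Ly6i, of 55450 genes listed, were followed through the cell types of the mouse colon in single-cell RNA libraries. Their rows were taken by gene symbol. The 6 genes were chosen by their differences between DSS and control libraries, or by their cell type pattern, in earlier results of these same data, so their own levels and fold changes are given as a description, with no p-value. How many of them passed the threshold of the fit across all genes is given once, beside the share of all genes that did, and supports nothing. The mice were 7 weeks old, were kept free of specified pathogens and drank either clean water or water with 3% dextran sulfate sodium (DSS), a polymer that injures the colon lining, for 2 days. The middle part of the colon was taken. There were 2 control libraries, called control 1 and control 2, and 2 DSS libraries, called DSS 1 and DSS 2. Where 4 values follow each other without names, they belong to the libraries in that order. The strain and sex of the mice were not given in the sources used here, and no label ties the libraries of a group to different animals. Any p-value therefore reflects library-to-library spread alone, and that spread may be technical.

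Ly6 proteins are small cysteine-rich proteins of the Ly6/uPAR family, held at the cell surface by a glycolipid anchor. In mice several of their genes sit side by side on 1 chromosome, arose by duplication and are used as surface markers of blood cells. Sca-1, the product of Ly6a, marks blood stem cells and also appears on injured or fetal-like gut epithelium. Ly6C, the product of Ly6c1 and Ly6c2, marks inflammatory monocytes, and Ly6G, the product of Ly6g, is the usual marker of neutrophils. Several of these genes are known to respond to interferon.

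The 6 genes lay within 204.1 kb of chromosome 15 (GRCm38, GENCODE M21), from 74955051 to 75159126, and were the 6 protein-coding genes among the 13 genes annotated in that span. In order along the chromosome these were Ly6e (plus strand, 74955051 to 74959905), Ly6i (minus strand, 74979534 to 74983430), Ly6a (minus strand, 74994877 to 74998031), Ly6c1 (minus strand, 75044018 to 75048830), Ly6c2 (minus strand, 75108158 to 75111970) and Ly6g (plus strand, 75155240 to 75159126). None overlapped another annotated gene. Their coding sequences were 396 to 411 bases long. The last 90 coding bases of each gene, ending in the stop codon, are shown because they cover the anchor signal end of the protein and show how alike the genes are. Capitals mark bases that differ from Ly6c1 in a comparison without gaps.
Ly6c1: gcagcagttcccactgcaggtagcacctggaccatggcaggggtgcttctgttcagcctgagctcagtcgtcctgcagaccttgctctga
Ly6c2: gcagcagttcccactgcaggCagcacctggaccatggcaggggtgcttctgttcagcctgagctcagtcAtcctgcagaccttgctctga
Ly6a: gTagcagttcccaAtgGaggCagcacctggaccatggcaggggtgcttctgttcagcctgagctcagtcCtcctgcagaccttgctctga
Ly6g: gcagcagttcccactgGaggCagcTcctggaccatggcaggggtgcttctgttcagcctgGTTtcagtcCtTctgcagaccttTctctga
Ly6i: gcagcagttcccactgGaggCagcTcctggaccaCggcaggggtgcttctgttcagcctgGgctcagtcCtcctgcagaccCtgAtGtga
Ly6e: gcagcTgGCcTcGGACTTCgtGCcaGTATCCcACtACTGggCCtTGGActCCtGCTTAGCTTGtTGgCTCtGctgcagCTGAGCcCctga
Ly6c2 differed from Ly6c1 at 2 of these 90 bases, Ly6a at 5, Ly6g and Ly6i at 9 each and Ly6e at 56. Over the whole coding sequence Ly6c1 and Ly6c2 were 97.7% identical. Ly6a and Ly6i were 86.4% identical, and Ly6e was 51.0% to 54.4% identical to the other 5. The libraries read the 3-prime end of transcripts, so likeness there bears on the counts. In the last 300 bases of the transcripts Ly6c1 and Ly6c2 were 93.5% identical and shared an unbroken run of 124 bases, while every other pair shared runs of 49 bases or fewer. How reads of that shared run were divided between Ly6c1 and Ly6c2 was not tested. Plasma cells held 2846 UMIs of Ly6c2 and 5 of Ly6c1 in control 1, and 25819 and 97 in DSS 1. Blood endothelial cells held 1 UMI of Ly6c2 and 995 of Ly6c1 in control 1, and 142 and 2067 in DSS 1.

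The table of RefSeq promoters (GRCm38.p6) held 3 of the 6 genes, Ly6g, Ly6c1 and Ly6c2. The 250 bases before the first listed start of each are shown because these 3 genes, of near-identical or related sequence, had their highest levels in 3 different cell classes. They lie at chr15:75155011-75155260 on the plus strand for Ly6g, chr15:75048838-75049087 on the minus strand for Ly6c1 and chr15:75111972-75112221 on the minus strand for Ly6c2. Capitals mark the letters TATAAA and GAGGAAGT.
Ly6g: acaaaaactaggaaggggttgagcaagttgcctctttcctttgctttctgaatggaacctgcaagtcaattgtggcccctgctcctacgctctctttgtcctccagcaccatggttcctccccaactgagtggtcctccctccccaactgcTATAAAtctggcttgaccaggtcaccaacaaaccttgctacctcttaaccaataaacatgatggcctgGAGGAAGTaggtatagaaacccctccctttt
Ly6c1: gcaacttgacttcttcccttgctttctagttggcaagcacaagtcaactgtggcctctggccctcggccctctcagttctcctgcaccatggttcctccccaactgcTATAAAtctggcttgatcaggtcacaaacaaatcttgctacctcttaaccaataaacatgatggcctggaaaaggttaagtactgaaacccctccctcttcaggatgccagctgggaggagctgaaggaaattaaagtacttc
Ly6c2: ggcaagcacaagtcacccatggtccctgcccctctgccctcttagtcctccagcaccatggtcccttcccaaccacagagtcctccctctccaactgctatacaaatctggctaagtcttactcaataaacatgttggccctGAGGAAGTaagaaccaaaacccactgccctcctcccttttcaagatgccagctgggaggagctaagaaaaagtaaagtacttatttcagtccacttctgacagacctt
A total of 4 motifs were searched on both strands. TATAAA, the letters of the TATA box motif, was found 99 bases before the start of Ly6g and 143 bases before that of Ly6c1. It was not in the window of Ly6c2. It stood in 12.4% of all 32851 promoter windows of the same length. Only letters were matched, and whether they act as a TATA box at these distances was not tested. GAGGAAGT, a site of the myeloid and B-lineage factor PU.1, was found 31 bases before the start of Ly6g and 108 bases before that of Ly6c2, and not in the window of Ly6c1. It stood in 2.44% of all windows. The table lists another start for each gene, not printed here, and there the window of Ly6c1 held 1 GAGGAAGT and no TATAAA, and that of Ly6c2 held 2 GAGGAAGT, so the difference between these genes holds for the first start alone. The core of the interferon-stimulated response element, GAAA and GAAA with any 2 bases between them (2.98% of windows), and TTCNNNGAA, the gamma-activated site (7.02%), were found in none of the 3. The windows were 46.9% to 58.5% identical in pairs.

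Loading aimed at 5000 cells, per the labels, while 10966, 13014, 12778 and 13093 barcodes were deposited. Of these 49851 barcodes, 44356 passed filters and 42448 remained as single cells, 9039, 10244, 11574 and 11591 by library. Median depth was 4731 to 6298 unique molecules (UMIs) per cell. Any pair of libraries shared 36 to 52 cell barcodes. Cells were clustered without the 6 genes, and clusters were named from marker genes, so a class name means that cells are like that type. Levels are CPM, the UMIs of a gene in a class and library per 1000000 UMIs of all genes there. Because a transcript gives UMIs at its 3-prime end only, levels are compared across cells and libraries and not between genes. Absorptive colonocytes were made of clusters 0, 3, 7 and 34, and their make-up differed between libraries. Cluster 7 gave 13 of 1882 colonocytes in control 1, 204 of 4505 in control 2, 174 of 568 in DSS 1 and 1669 of 2633 in DSS 2, and values by cluster are given for that reason.

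The 6 genes had different main sources. Of the 203108 UMIs of Ly6a, 66.3% lay in epithelial cells and 25.6% in fibroblasts. Ly6g had the largest share in 1 named class, with 94.2% of its 27146 UMIs in epithelial cells and 87.7% in absorptive colonocytes. Ly6c1 had 52.3% of its 19821 UMIs in fibroblasts, 21.8% in absorptive colonocytes and 16.5% in the 335 blood endothelial cells. They differed between libraries: blood endothelial cells held 43.0%, 0%, 42.5% and 1.88% and colonocytes 3.02%, 9.09%, 7.36% and 34.8% of the Ly6c1 UMIs of the libraries. Ly6c2 had 53.9% of its 72679 UMIs in plasma cells and 38.2% in cluster 24, an unnamed cluster led by immunoglobulin lambda genes. That cluster carried 8 of the 9 plasma cell markers. Ly6e was spread over many classes. Goblet cells held 21.6% of its 127322 UMIs over all libraries, and 51.2%, 22.8%, 10.4% and 12.7% by library. Plasma cells held more in DSS 1 (21.4%), and fibroblasts more in DSS 2 (23.5%). Ly6i was scarce, with 589 UMIs in all, of which 42.3% lay in macrophages and 37.7% in plasma cells.

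**Figure D1:**
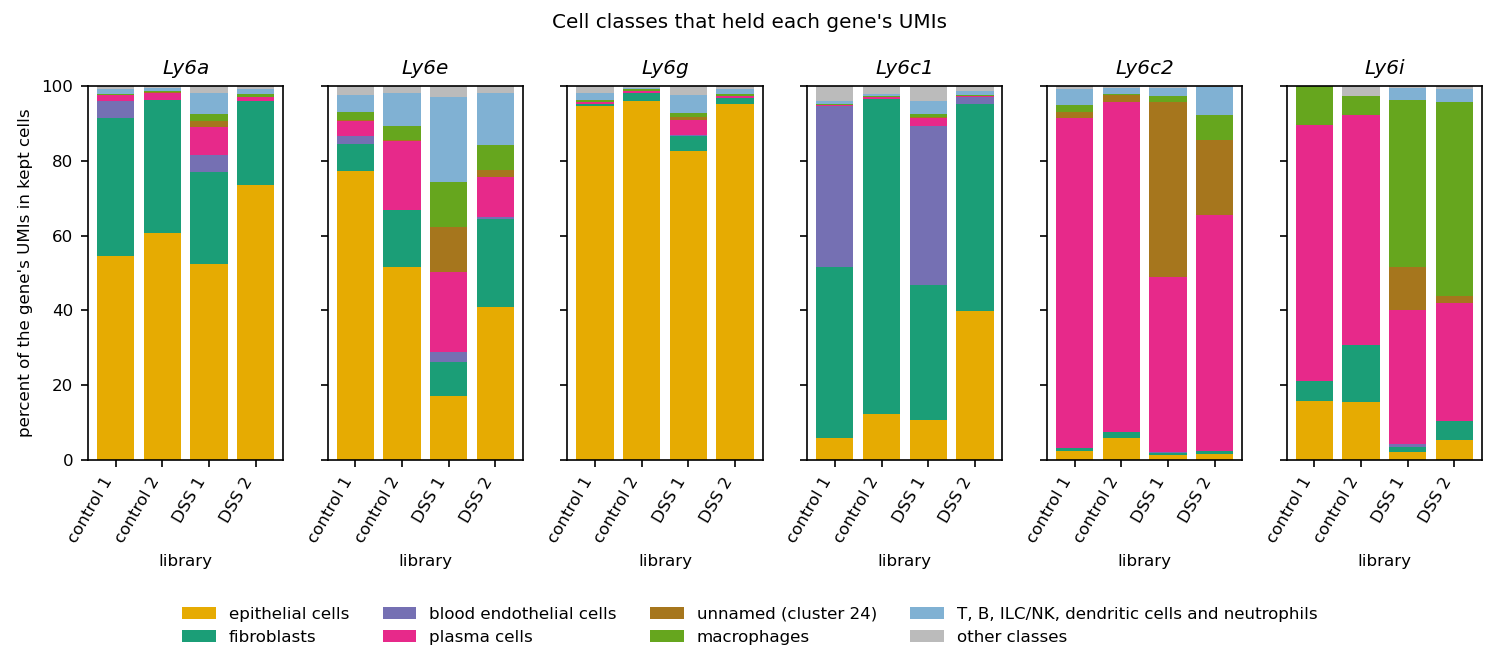
Stacked bars give the percent of each gene's UMIs (vertical axis) held by each group of cell classes in each of the 4 libraries (horizontal axis). Epithelial cells held 82.6% to 95.9% of Ly6g UMIs over the 4 libraries, while the holders of Ly6c1, Ly6c2 and Ly6i differed between libraries.

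**Figure D2:**
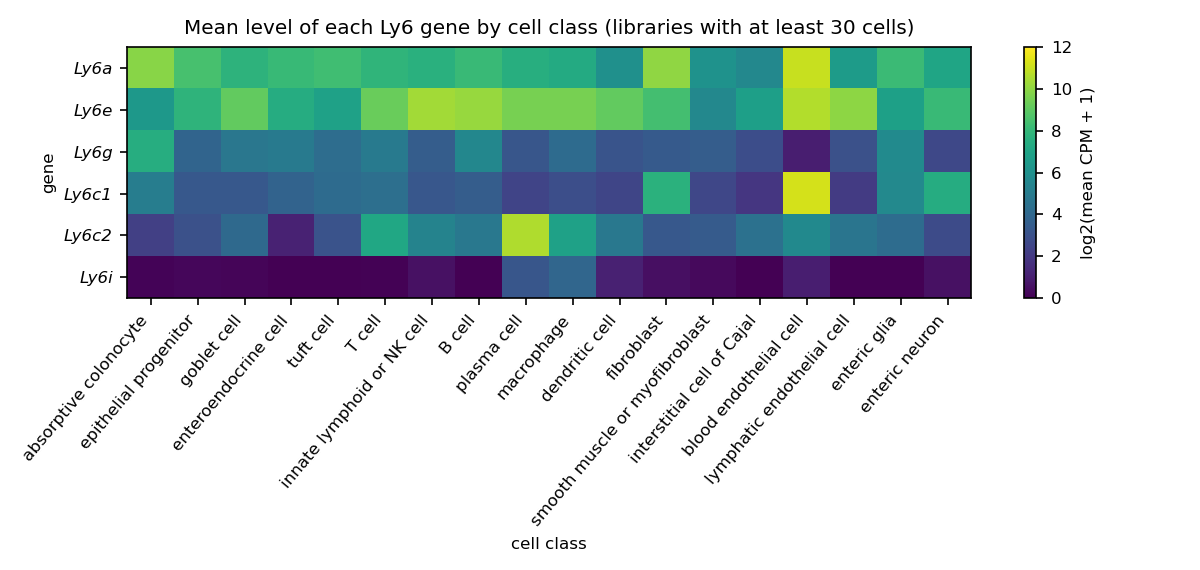
Colour gives log2 of the mean CPM plus 1 for each gene (rows) in the 18 classes with at least 30 cells in at least 3 libraries (columns), averaged over libraries with at least 30 cells. Ly6a and Ly6c1 are brightest in blood endothelial cells, Ly6g in absorptive colonocytes and Ly6c2 in plasma cells.

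Ly6a was higher in both DSS libraries than in both controls in each of the 5 epithelial classes. In absorptive colonocytes, which line the gut surface and take up water and salt, its levels were 371, 277, 1287 and 1842 CPM. The groups did not overlap, and the log2 fold change from the count model of edgeR was 2.16 (SE 0.31). Epithelial progenitors were named from crypt base markers such as Lgr5 and Ascl2, though few of their DSS cells lay in an Lgr5-led cluster at finer clustering. There Ly6a was 72.7 and 79.4 CPM in the controls and 619 and 692 CPM under DSS (log2 fold change 3.22, SE 0.29). The libraries of each group lay close together in this class, whose make-up differed between groups, as given below. In goblet cells, which secrete mucus, the levels were 27.1, 40.5, 160 and 639 CPM (3.63, SE 0.59). The groups were again apart, but DSS 2 stood well above DSS 1, and without DSS 2 the log2 fold change was 2.56. The 2 small classes had 23.0, 71.5, 350 and 706 CPM (enteroendocrine cells, 11 of them in DSS 1) and 79.1, 143, 206 and 658 CPM (tuft cells, 27 of them in control 2).

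The higher Ly6a level under DSS was also measured within single epithelial clusters. Cluster 0, led by Mal and Slc51a, had 372 and 269 CPM in the controls and 1036 and 1241 CPM under DSS. Cluster 3 was led by Ifit1bl1, Atp12a, and Duox2 and Duoxa2, which make peroxide at the surface. It had 321 and 272 CPM against 1387 and 1850 CPM. Cluster 7, led by the antimicrobial lectin genes Reg3g and Reg3b, had 829 CPM in the 13 cells of control 1 and 423 CPM in control 2, against 1433 and 1888 CPM. In colonocytes of cluster 0 alone the log2 fold change was 1.75, against 2.16 in the whole class. The progenitors of cluster 2, led by Lgr5 and Ascl2, had 76.6 and 71.7 CPM against 634 and 671 CPM. The make-up of the progenitors differed between groups as well. At a finer clustering the progenitor class had 1937, 722, 194 and 504 cells, against 2125, 790, 372 and 587. In DSS 1 the colonocyte class had 756 cells there, against 568. Its cluster 11, led by Duoxa2 and Duox2, had 254, 879, 87 and 146 cells, with Ly6a at 349, 276, 1168 and 1344 CPM. Cluster 15, with Atp12a, Ifit1 and Isg15 among its leading genes, had 22, 226, 156 and 724 cells. Ly6a there was 563, 565, 1526 and 1901 CPM. How the cells of cluster 3 of the main clustering were divided between them was not tested. Cluster 18 of the finer clustering, led by Lgr5 and Ascl2, had 717 and 322 cells in the controls but 9 and 31 under DSS. Its Ly6a level was 31.15 and 31.32 CPM in the controls, below the whole class, and 243 and 1004 CPM in its few DSS cells. Cluster 2 of that clustering, led by 9230105E05Rik and Sult1c2, had 940, 229, 168 and 378 cells. It was named from Cdca7, Slc12a2, Cftr and Ephb2, and not from Lgr5 or Ascl2. Ly6a in this cluster 2 was 64.8 and 107 CPM in the controls and 454 and 613 CPM under DSS, so the groups were apart there too.

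**Figure D3:**
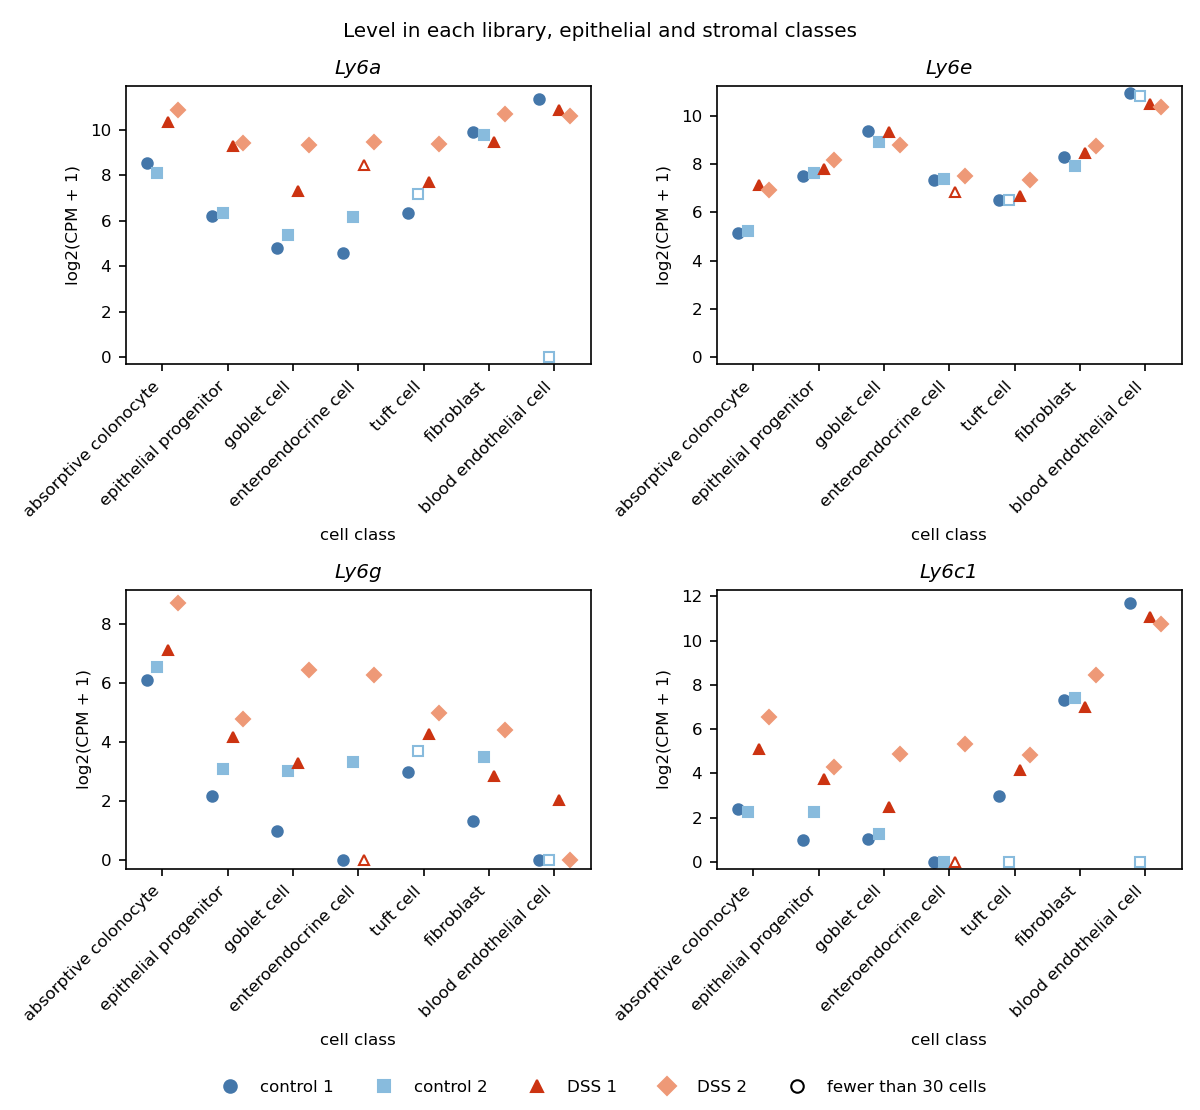
Points give log2(CPM + 1) of Ly6a, Ly6e, Ly6g and Ly6c1 (vertical axes) in each library by cell class (horizontal axes), with open points for libraries with fewer than 30 cells of the class. Ly6a in colonocytes lies at 277 to 371 CPM in the controls and 1287 to 1842 CPM under DSS, while the fibroblast values of the groups overlap.

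In cells rather than molecules, a Ly6a UMI was found in 68.8% (exact 95% interval 66.7 to 70.9) and 61.9% (60.5 to 63.3) of colonocytes in control 1 and control 2. The shares were 97.9% (96.3 to 98.9) in DSS 1 and 96.1% (95.2 to 96.8) in DSS 2. Intervals here cover counting error within a library only. Colonocytes were deeper under DSS, with median depths of 6086 and 8394 UMIs in the controls and 18130 and 14859 UMIs under DSS. After each cell was thinned to 2000 UMIs, the shares were 41.2% and 32.0% in the controls and 83.2% and 87.5% under DSS. In smooth muscle, used as the class that should lack Ly6a, the unthinned shares were 8.26%, 10.1%, 14.5% and 25%, at median depths of 3978 to 6244 UMIs. That background was itself higher under DSS, and it was below the colonocyte share in each library.

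Colonocyte transcripts were also found outside colonocytes, and their part in the Ly6a values of other classes was not tested. The summed level of the 14 colonocyte markers in goblet cells was 1947, 3449, 3638 and 7467 CPM, with no marker at 0. Per 100 UMIs of these markers, goblet cells held 1.39, 1.17, 4.39 and 8.55 UMIs of Ly6a, against 1.32, 0.93, 7.29 and 8.04 in colonocytes themselves, so goblet cells were slightly higher in 3 libraries and lower in DSS 1. In progenitors the summed markers were 2612, 3351, 5995 and 5526 CPM, also with none at 0. Progenitors held 2.78, 2.37, 10.3 and 12.5 Ly6a UMIs per 100 of them, above colonocytes in each library. For T cells the values were 4.93, 2.46, 20 and 15.9.

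Outside the epithelium Ly6a was high in blood endothelial cells and fibroblasts with or without DSS. Blood endothelial cells had 2620 CPM in control 1, 1895 CPM in DSS 1 and 1555 CPM in DSS 2, and control 2 held only 1 such cell. They headed the order of classes, but their range overlapped that of the next class, fibroblasts, which overlapped that of colonocytes in turn. In fibroblasts the levels were 958, 864, 715 and 1631 CPM, so the groups overlapped. Cluster 4, led by the matrix and inflammation genes Ptx3, Tnfaip6 and Has1, gave 2082 of the 4143 fibroblasts of DSS 2 and had the highest fibroblast level of Ly6a (1218 to 2081 CPM over the 4 libraries). Without DSS 2 the log2 fold change in fibroblasts was -0.22, against 0.46 with it. In T cells the levels were 123, 77.5, 262 and 458 CPM, and in macrophages 57.2, 55.2, 98.0 and 428 CPM, with no overlap in either class. The T cell class of the finer clustering was smaller, with 166, 301, 735 and 820 cells against 259, 478, 1052 and 905. Its cluster 17 had 11.6, 13.8, 48.2 and 64.2 CPM and its cluster 20 had 272, 159, 366 and 329 CPM. In DSS 2 both lay below the 458 CPM of the larger class. Which of the T cells left out carried the rest was not tested. The macrophage log2 fold change of 2.18 was 0.85 without DSS 2.

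Ly6e, the most distant of the 6 in sequence and a known interferon-responsive restriction factor of viral entry, was highest in cells of the blood vessel wall and in lymphocytes. Its level in blood endothelial cells was 1978, 1461 and 1325 CPM in control 1, DSS 1 and DSS 2. Innate lymphoid or NK cells (922 to 1512 CPM), B cells (1036 to 1245 CPM) and lymphatic endothelial cells (681 to 1345 CPM) followed, and each overlapped its neighbour in the order. In macrophages it was 613 and 475 CPM in the controls and 890 and 1009 CPM under DSS, with no overlap.

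Among the 5 epithelial classes Ly6e was lowest in the colonocytes of both controls, and its fold change was largest in colonocytes among the epithelial classes fitted. Colonocytes had 34 and 36.1 CPM in the controls and 138 and 120 CPM under DSS (log2 fold change 1.76, SE 0.20). This was the most even of the colonocyte differences, with SEs of 0.31, 0.51 and 0.49 for Ly6a, Ly6g and Ly6c1. Progenitors had 180 and 199 CPM against 221 and 284 CPM, without overlap and with a small difference (0.53, SE 0.25). Goblet cells had 659, 489, 643 and 444 CPM, and the groups overlapped.

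Most Ly6g UMIs of these libraries lay in absorptive colonocytes. Neutrophils, the cells the gene usually marks, were too few to set a level, with 0, 1, 8 and 10 cells. They held 3 Ly6g UMIs, all in the 10 cells of DSS 2, where these made 269 CPM. In colonocytes its levels were 68.5, 92.9, 139 and 419 CPM (log2 fold change 1.66, SE 0.51). The groups did not overlap, but DSS 2 decided the size of the difference. Without DSS 2 the log2 fold change was 0.67.

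Within colonocytes Ly6g followed the cluster as well as the group. Cluster 3, with Ifit1bl1, Duoxa2 and Duox2 among its leading genes, had 143, 135, 289 and 564 CPM. Cluster 0 had 56.5, 76.2, 105 and 281 CPM, below cluster 3 in each of the 4 libraries. Cluster 7 had 24.1, 89.7, 76.9 and 407 CPM, the first from 13 cells, so its groups overlapped. Cluster 7 lay below cluster 3 in each library. Ly6g was among the 5 leading genes of cluster 7, next to Reg3g, Reg3b, Clca4b and Il1rn. That fold was taken over all other cells, non-epithelial ones included. Most cells of cluster 7 came from DSS 2, the library with the highest Ly6g level, so that rank does not set cluster 7 apart from other colonocytes. Ly6a, by contrast, lay at 269 to 372 CPM in both clusters 0 and 3 of the controls.

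**Figure D4:**
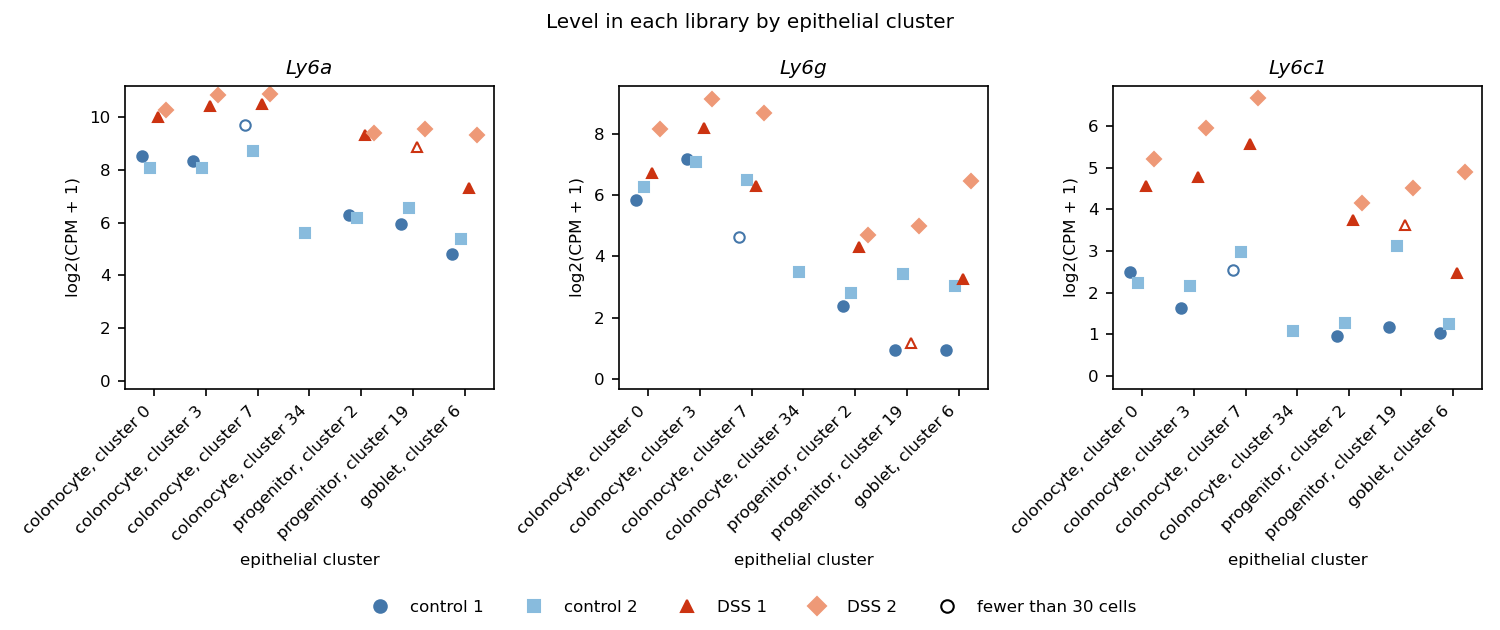
Points give log2(CPM + 1) of Ly6a, Ly6g and Ly6c1 (vertical axes) in each library by epithelial cluster (horizontal axes), with open points for fewer than 30 cells. Ly6g is higher in cluster 3 than in cluster 0 in each library (143 against 56.5 CPM in control 1), while Ly6a separates the groups within clusters 0, 3 and 2.

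A Ly6g UMI was present in 30.4%, 33.3%, 57.2% and 71.1% of colonocytes. After thinning to 2000 UMIs the shares were 12.7%, 13.9%, 21.8% and 42.0%. B cells, used as a class that should lack Ly6g, had shares of 2.88%, 9.38%, 1.14% and 5.56% at median depths of 1780 to 2374 UMIs. Other classes also held colonocyte transcripts, and their part in the Ly6g values there was not tested. Per 100 UMIs of the colonocyte markers, colonocytes held 0.24, 0.31, 0.78 and 1.83 Ly6g UMIs. The values were 0.27, 0.48, 1.48 and 1.72 in fibroblasts, 0.71, 0.21, 0.59 and 2.84 in T cells and 0.05, 0.21, 0.24 and 1.16 in goblet cells. In progenitors, whose Ly6g level was 3.44, 7.41, 17.1 and 26.7 CPM, they were 0.13, 0.22, 0.29 and 0.48, below colonocytes in each library. Ly6g in goblet cells, at 0.95, 7.16, 8.69 and 86.9 CPM, is given with that limit.

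Ly6c1 marked the blood vessel wall. Blood endothelial cells had 3308 CPM in control 1, 2137 in DSS 1 and 1718 in DSS 2, and their lowest value lay far above the highest of any other class. A Ly6c1 UMI was found in 94.3%, 93.4% and 81.8% of them in these 3 libraries, against 0.72% to 4.17% of B cells where any was found, at median depths of 2453 to 3152 and 1780 to 2374 UMIs. In the 32 B cells of control 2 none was found, which allows a share of up to 9.38%. Fibroblasts (160, 169, 129 and 349 CPM) and enteric neurons (218, 167 and 124 CPM in control 1, DSS 1 and DSS 2) came next and overlapped. The groups overlapped in fibroblasts, and the log2 fold change of 0.63 was -0.22 without DSS 2.

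In the epithelium Ly6c1 was low in the controls and higher in both DSS libraries. Colonocytes had 4.26 and 3.84 CPM in the controls and 33.5 and 92.0 CPM under DSS (log2 fold change 3.84, SE 0.49, and 2.95 without DSS 2). Progenitors had 1.02 and 3.78 CPM against 12.4 and 18.4 CPM (2.92, SE 0.52), and goblet cells 1.04 and 1.38 CPM against 4.58 and 28.6 CPM. None of these groups overlapped. In colonocytes the share of cells with a UMI was 3.14% and 3.44% in the controls and 23.6% and 37.2% under DSS, and 0.81%, 0.77%, 4.42% and 11.0% after thinning. Among colonocytes of DSS 2, 46.5% of those with a Ly6g UMI and 14.2% of those without had a Ly6c1 UMI. The former were deeper, at a median of 16393 against 10532 UMIs, so depth differed along with that contrast. In DSS 1, where depth was 17964 with and 18777 without a Ly6g UMI, the shares were 29.2% and 16%. The summed level of the 7 fibroblast markers in colonocytes was 73.9, 136, 136 and 127 CPM, with none at 0, so control 2 and both DSS libraries were level. In goblet cells it was 59.7, 408, 369 and 515 CPM, and its part in the Ly6c1 values was not tested.

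Ly6c2 was a plasma cell gene in all 4 libraries. Plasma cells, the antibody-secreting cells of the lamina propria, had 2155, 1205, 1555 and 1198 CPM. The groups overlapped, and the lowest value lay above the highest of every other named class. The next classes, T cells and macrophages, overlapped each other. The unnamed cluster 24 had 3 and 6 cells in the controls and 439 and 58 under DSS, with 741, 1871, 3209 and 2518 CPM. It gave 46.9% of the Ly6c2 UMIs of DSS 1 and 20.1% of those of DSS 2. It carried 8 of the 9 plasma cell markers, and Ly6c2 was among its leading genes, but the naming rule left it unnamed. A UMI was present in 63.3% to 80.5% of plasma cells, against 0.63%, 4.0%, 7.27% and 0.89% of fibroblasts, the class taken to lack the gene. Median depths were 8336 to 14148 UMIs in plasma cells and 3609 to 4939 UMIs in fibroblasts.

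Among T cells Ly6c2 was higher in cluster 13 than in cluster 9 in each library. Cluster 13, led by Klra6, Klra7, Klra1, Tcrg-C2, Trgv2, Cd7, Cd160 and Ccl5, had 349, 101, 304 and 342 CPM. Cluster 9, led by Cd5, Tnfrsf4 and Icos, had 6.70, 41.2, 45.6 and 41.2 CPM. Neither cluster separated the groups. In macrophages the levels were 60.4 and 13.6 CPM in the controls and 120 and 266 CPM under DSS, without overlap.

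In goblet cells and progenitors Ly6c2 was highest in DSS 1, where the immune markers were highest too. Goblet cells had 1.90, 5.10, 49.8 and 7.69 CPM, and progenitors 0.51, 4.43, 21 and 1.51 CPM. The summed level of 37 immune markers in goblet cells was 360, 1411, 7594 and 2859 CPM, with 4, 6, 0 and 7 of them at 0. Per 100 UMIs of the 9 plasma cell markers, goblet cells held 0.56, 0.37, 0.67 and 0.27 Ly6c2 UMIs, and plasma cells 1.12, 0.54, 0.80 and 0.49. The part of free plasma cell RNA in these values was not tested.

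**Figure D5:**
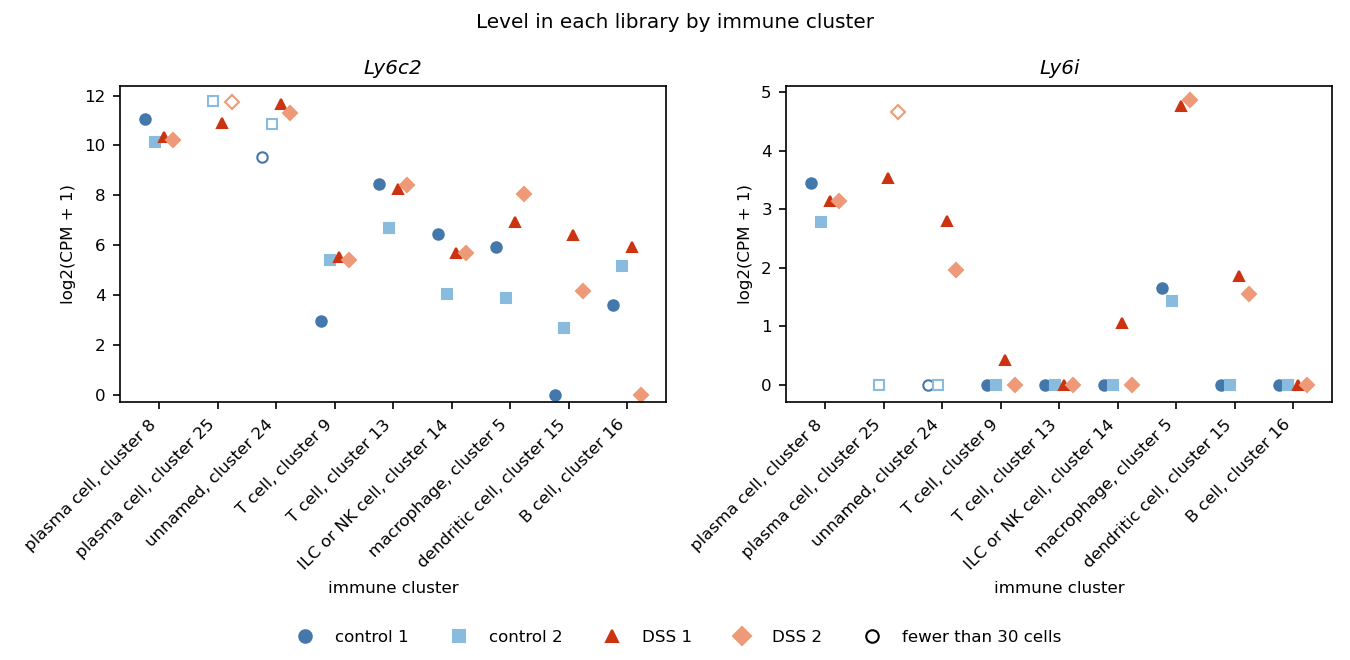
Points give log2(CPM + 1) of Ly6c2 and Ly6i (vertical axes) in each library by immune cluster (horizontal axes), with open points for fewer than 30 cells. Ly6c2 lies at 1143 to 3554 CPM in plasma cell clusters 8 and 25 and at 101 to 349 CPM in T cell cluster 13. Ly6i separates the groups in macrophage cluster 5, but not in the smaller macrophage class of the finer clustering, which is not drawn.

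Ly6i was detected in few cells, and macrophages held the largest share of its UMIs in both DSS libraries. Macrophages had 2.16 CPM (2 UMIs) in control 1, 1.70 CPM (2 UMIs) in control 2, 26.0 CPM (186 UMIs) in DSS 1 and 28.1 CPM (59 UMIs) in DSS 2. The groups did not overlap in this class (log2 fold change 3.78, SE 0.52). In the smaller macrophage class of the finer clustering, given below, they overlapped. A Ly6i UMI was found in 0.96% and 0.52% of macrophages in the controls and in 6.83% and 7.62% under DSS, and in 0 of 701 B cells of DSS 1, which allows up to 0.428%. Median depths were 1792 to 6042 UMIs in macrophages and 2374 UMIs in those B cells. Plasma cells carried the gene in both groups, at 9.84 and 5.72 CPM in the controls and 8.97 and 7.94 CPM under DSS, which overlapped.

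A finer clustering set apart 1 cluster with monocyte genes that carried Ly6i and Ly6c2. At the higher resolution, cluster 32 carried 8 monocyte markers, among them Ccr2 and Chil3, and as many macrophage markers, and had 8, 22, 228 and 201 cells. Its Ly6i level was 110 CPM in DSS 1 (154 UMIs) and 61.6 CPM in DSS 2 (54 UMIs), and the 30 control cells held 1 UMI. Its Ly6c2 level was 361 and 611 CPM in the DSS libraries. The class of macrophages was smaller at this resolution, with 173, 190, 718 and 169 cells against 208, 387, 1083 and 446. Besides cluster 32 it lacked cluster 23, a shallow cluster with macrophage markers that stayed unnamed. In this smaller class the log2 fold change of Ly6c2 was -0.07, against 2.34 in the larger, and that of Ly6a was 0.70, against 2.18. Its Ly6i levels were 1.17, 1.23, 5.62 and 1.15 CPM, the last from 1 UMI, so the groups overlapped. In DSS 1 and DSS 2 the larger class held 861 and 560 Ly6c2 UMIs, the smaller 322 and 7, and cluster 32 held 506 and 536. For Ly6a these were 700 and 899, 356 and 89, and 223 and 223. Whether all cells of cluster 32 came from the larger class, and which cells left out carried the differences, was not tested. The controls had too few cells of cluster 32 for a comparison between groups.

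Of the 6 genes, 5 could be fitted in each class in the fit across all genes, Ly6i being too low outside macrophages and Ly6c1 too low in macrophages. The fitted log2 fold changes were all above 0 with the 4 libraries, some of them by less than their SE, such as Ly6e in goblet cells (0.07, SE 0.41) and Ly6c2 in colonocytes (0.33, SE 1.07), whose groups overlapped. Without DSS 2 Ly6g lay below 0 in T cells (-0.51) and macrophages (-1.95). The medians were 1.76 in colonocytes, 2.54 in progenitors, 3.63 in goblet cells, 2.20 in all epithelial cells, 0.98 in T cells, 2.18 in macrophages and 0.63 in fibroblasts, while the median of all genes tested lay between -0.03 and 0.00. At an adjusted p under 0.05 in edgeR's quasi-likelihood test, 3 of 5 Ly6 genes were called in progenitors (Ly6a, Ly6c1 and Ly6g), beside 1.71% of all genes tested. None of 5 was called in colonocytes (0.0417% of all genes called), all epithelial cells (0.0113%), goblet cells (0%), T cells (0%), macrophages (0%) or fibroblasts (0%). Nothing is read from these signs, medians and counts, since the genes were selected on this contrast. Colonocyte markers were higher in DSS progenitors, as given above. Their part in these calls, and in the progenitor calls of the gene lists below, was not tested. In goblet cells, T cells, macrophages and fibroblasts, where edgeR called 0 genes, 1714, 168, 144 and 327 genes had an unadjusted p under 0.05 and DESeq2 called 412, 5, 5 and 27.

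In the wider Ly6/uPAR family edgeR called 1 gene in progenitors, the class where 1.71% of all genes tested were called. Of 40 other family genes listed, 34 were in the files and 9 could be tested in progenitors, of which none rose and 1 fell. Of these 9, 8 had a fold change above 0, with a median of 1.06 beside -0.01 over all genes tested, and DESeq2 called 2 higher and 1 lower. The gene that fell was Cd177, a surface protein otherwise known from neutrophils, from 174 and 200 CPM in the controls to 39.8 and 49.2 CPM under DSS (log2 fold change -1.96, SE 0.23, adjusted p = 0.0166 in edgeR). In colonocytes 12 were tested and none passed, with 7 above 0 and a median log2 fold change of 0.21, and DESeq2 called 1. Lypd8, a secreted protein that keeps flagellated bacteria from the epithelium, was the most abundant, at 16559 and 16335 CPM in control colonocytes and 14253 and 13608 CPM under DSS (-0.36, SE 0.40, adjusted p = 0.686 in edgeR). Other family genes had their highest level elsewhere, among them Ly6d in B cells (770 CPM), Gpihbp1, the lipase anchor of capillaries, in lymphatic endothelial cells (466 CPM), Ly6h in enteric neurons (293 CPM), Ly6g6f in tuft cells (339 CPM) and Plaur, the urokinase receptor, in macrophages (160 CPM).

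Among interferon response genes, 5 rose in progenitors, where 1.71% of all genes tested were called in either direction. Of 29 tested, 5 rose and none fell, all 29 had a fold change above 0, and their median was 1.62, beside -0.01 over all genes tested. Zbp1, a sensor of nucleic acids, went from 2.85 and 3.92 CPM to 27.2 and 35.9 CPM (log2 fold change 3.35, SE 0.26, adjusted p = 0.00479 in edgeR). Isg15, a ubiquitin-like modifier (2.61, adjusted p = 0.0198), and Psmb8, an immunoproteasome subunit (1.68, adjusted p = 0.0339), also rose by edgeR. Ifi44, which rose too (3.36, adjusted p = 0.0292 in edgeR), lay under 20 CPM and is named after its values were seen. Without control 1 or without control 2 only 2 of the genes of this list passed, and the calls of Ifi44 and Psmb8 were lost in both cases. In colonocytes 25 of 30 were above 0 with a median of 1.08 and none passed, where DESeq2 called 11. In fibroblasts all 30 were above 0, with a median of 1.11 and none called by edgeR against 1 by DESeq2. This list was chosen with earlier results known and is not independent evidence of its direction.

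Genes of fetal-like and regenerating epithelium, with which Ly6a is often counted, gave 3 that rose and 1 that fell among 15 tested in progenitors. Of all genes tested in that class, 1.71% were called in either direction. Anxa3, an annexin, went from 53.5 and 53.0 CPM to 227 and 163 CPM (log2 fold change 2.00, adjusted p = 0.0292 in edgeR). Anxa8 (1.82, adjusted p = 0.0411) and Il1rn, the interleukin 1 receptor antagonist (1.73, adjusted p = 0.0187), rose as well by edgeR. Cd44, a hyaluronan receptor of crypt base cells, fell from 47.9 and 131 CPM to 7.88 and 18.8 CPM (-2.60, adjusted p = 0.0442 in edgeR). Il1rn and Anxa8 were also leading genes of colonocyte cluster 7. The Lgr5-led cluster 18 of the finer clustering had 717 and 322 cells in the controls and 9 and 31 under DSS. The part of this make-up and of colonocyte transcripts in these calls was not tested. Of the 15, 14 were above 0 and the median was 1.18. Without control 2 only 1 of the 3 still rose, and the call of Cd44 was lost, and without control 1 the calls of Anxa3 and Anxa8 were lost. Clu, often used as a mark of regenerating epithelium and named here after its values were seen, lay at 0.84 (SE 0.52, adjusted p = 0.414 in edgeR). In colonocytes 15 of 16 were above 0 with a median of 0.68, and none passed by edgeR, where DESeq2 called 3. This list, too, was chosen with earlier results known.

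The genes nearest to each Ly6 gene over the classes were found by Pearson's r of log2(CPM + 1) across 19 classes, among 12481 genes. These correlations are descriptions, since all classes share the same 4 libraries. For Ly6e these were Apobec3 (0.87), AI467606 and H2-Q6, and for Ly6c1 Ackr1 (0.87), Inhbb and Ccdc85a. For Ly6g they were AC141639.2 (0.92), Mgam2-ps and Cyp2d34, and for Ly6c2 Gm5547 (0.92), Jchain and Igha. For Ly6i they were Gm5547 (0.82), Ighv11-2 and Igkv10-94. Ly6a was least well matched, with Reg3b (0.70), Rhbdl2 and Oxsm. Among the 6, the closest pairs were Ly6a with Ly6c1 (0.75) and Ly6c2 with Ly6i (0.69), while Ly6c1 and Ly6c2, nearly identical in sequence, were at -0.15.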

How the data were processed

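Whole-number UMI counts per gene and cell were deposited by the authors as 4 filtered matrices, made with Cell Ranger 6.1.1 against GRCm38 per the submitters' processing notes. The labels name both V3 and v2 reagents of a 3-prime droplet kit. Barcodes under 500 UMIs, under 250 genes or above 25% mitochondrial UMIs were left out. Predicted doublets were removed at a rate assumed to grow with cell number (scanpy 1.11.5). Cells were clustered on 2000 variable genes without the 6 Ly6 genes, with 40 components, 20 neighbours and Leiden resolution 1 (leidenalg 0.10.2). A cluster was named from at least 3 markers found in at least 15% of its cells at 2-fold or more over the other cells. The pericyte rule was set after the clusters were seen.

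Cells are not replicates. UMIs were summed per library and class, and 7 chosen classes, none with under 30 cells in a library, were fitted with edgeR 4.0.16 (quasi-likelihood test, TMM, Benjamini-Hochberg adjustment over all genes tested, threshold 0.05, R 4.3.3). The 4 libraries of a class entered each fit, with no covariate. DESeq2 1.42.0, other size factors, no filter on low counts, a replicate block, other clusterings, doublets kept and each library left out were the alternatives. The edgeR test was also run on counts simulated after colonocytes and progenitors, with the outcome not given here. DESeq2 and the other classes were not simulated. From the gene lists, genes past the threshold and at 20 CPM or more in the higher group were named, at most 5 per list and class. Where none passed, at most 3 with the largest level were named. Per Ly6 gene the 3 genes with the most similar class pattern were named. One gene of the interferon list is not reported here by name. The 6 genes and all lists were chosen with earlier results of these data known. Sequences come from GENCODE M21 and from RefSeq, aligned with Biopython 1.88.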

Additional observations from a re-analysis of the deposited data

How the results depend on the processing

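Of 283 recomputed log2 fold changes of the Ly6 genes at 20 CPM or more, 250 moved by less than the spread between libraries, 33 moved by more, and 7 had the other sign. The other signs were T cell Ly6g (-0.51), macrophage Ly6g (-1.95) and fibroblast Ly6a and Ly6c1 (both -0.22) without DSS 2, goblet cell Ly6e without control 2 (-0.25) and without DSS 1 (-0.43), and macrophage Ly6c2 (-0.07) with the finer clustering. Of 24 recomputed shares of cells, 12 moved.

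The number of genes called depended strongly on the setting, and the cause was not tested. In the order colonocytes, progenitors, goblet cells, all epithelial cells, T cells, macrophages and fibroblasts, edgeR called 6, 238, 0, 2, 0, 0 and 0 genes. Without a filter on low counts it called 1290, 1578, 1162, 486, 27, 74 and 173. DESeq2 called 747, 908, 412, 235, 5, 5 and 27. With the replicate number as a block edgeR called 672, 1258, 418, 12, 43, 98 and 243. Same-numbered libraries deviated together (r of 0.181 to 0.542), but 2 pairs do not show that the numbers pair the libraries. Leaving out 1 library gave 0 to 419, 42 to 1298, 0 to 4, 0 to 106, 1 to 10, 0 to 65 and 0 to 67. For colonocytes the count was 0 with the finer clustering, with the Ly6 genes among the variable genes, without cluster 7 and in cluster 0 alone, and 36 in cluster 3 alone. For progenitors it was 595 with the Ly6 genes among the variable genes and 473 in cluster 2 alone. The cluster subsets were chosen after seeing the data. Depth limits Ly6i outside macrophages and plasma cells, and with 2 libraries a group the calls rest on few degrees of freedom.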
